A study of Homo sapiens with 48 samples.

Results

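The 36 genes described here encode the folding and secretory machinery of the endoplasmic reticulum (ER), and they were taken by symbol from a list of named genes. That list was chosen with earlier results of these data known, so it is not independent of them. They were 36 of the 29744 genes in the deposited tables. All 36 were found by symbol, and all 36 passed the filter on low counts in both arms of the experiment. They fall into 8 roles: 11 ER chaperones and co-chaperones, 4 protein disulphide isomerases, 5 collagen chaperones and prolyl isomerases, 4 genes of ER-associated degradation (ERAD), 4 ER stress transcription factors, 2 translocon subunits, 4 genes of the COPII coat and its cargo receptor, and 2 KDEL receptors. RNA came from IL11mNG fibroblasts, an immortalized human skin fibroblast line with an mNeonGreen fluorescent reporter of IL11. In the CRISPRko arm the cells expressed Cas9 and carried a non-targeting guide (H47_Ctrl) or a guide against the transcription factor GLIS3 (H47_KO). In the CRISPRa arm they expressed dCas9–VP64, an inactive Cas9 fused to an activator, and carried, by their descriptions, a control or a GLIS3 guide (VP64_Ctrl and VP64_A). Guides were delivered by lentivirus into reporter lines derived from 1 cell each and kept as selected bulk populations, so that each library averaged over many edited or unedited cells. All 4 cell groups were exposed to TGFβ and IL-1β together, at 10 ng/ml each, for 0, 6, 12 or 24 h, with 3 libraries per condition and 48 in all. The cell line field of the labels reads as a Cas9 line with GLIS3 knocked out for every sample, the controls and the CRISPRa arm included, and was not used.

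Secreted and membrane proteins enter the ER through the Sec61 translocon and fold there with the help of Hsp70 and Hsp90 chaperones, lectin chaperones and disulphide isomerases, while collagen also needs prolyl isomerases and the chaperone HSP47. Folded cargo leaves in COPII vesicles, escaped residents are brought back by KDEL receptors, and proteins that do not fold are extracted and degraded by ERAD. When unfolded proteins build up, the sensors IRE1, PERK and ATF6 start the unfolded protein response, in which spliced XBP1 and cleaved ATF6 bind ER stress response elements in promoters of chaperone and ERAD genes. Fibroblasts that secrete collagen and cytokines in large amounts depend on this machinery. Gene counts cannot show XBP1 splicing or ATF6 cleavage, so that only the abundance of each transcript was compared.

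Library totals ran from 2321990 to 10661004 estimated counts, of which the 36 genes took 1.25% to 1.90%. GLIS3, checked first, lay between 1.45 and 6.47 normalized CPM in the 12 H47_Ctrl libraries and between 0.144 and 1.63 in the 12 H47_KO libraries. Normalized CPM (counts relative to library size) were scaled within each arm by TMM, a trimmed mean of gene ratios. In the CRISPRa arm GLIS3 lay between 16.6 and 36.7 normalized CPM in VP64_A and between 1.91 and 6.31 in VP64_Ctrl, which goes with the sample descriptions and against the titles: the titles name VP64_A as the control. These groups are called by their descriptions, and directions are VP64_A over VP64_Ctrl. In all, 3 libraries stood apart by their scaling factors, which were 1.84 for VP64_Ctrl at 0 h replicate 3, 1.51 for H47_KO at 24 h replicate 3 and 1.5 for H47_KO at 0 h replicate 3, against at most 1.34 elsewhere. The same 3 had the lowest shares of counts in their 50 most abundant genes, 23.1%, 31.4% and 30.7%. Member calls that rest on them are mostly given with and without them. Shares of all genes, medians over the members, times of the highest mean and differences in response are given with them only. All 8 fibroblast markers were detected in every library, at unlike levels. Over the 48 libraries VIM held 8824 to 23820 TPM, COL1A2 1123 to 4845, COL1A1 222.5 to 1839, THY1 444.9 to 1458 and LUM 137.2 to 467.4. COL3A1 held 40.5 to 402.2 TPM, PDGFRB 9.002 to 45.2 and DCN 6.787 to 41.74. Of 14 markers of keratinocytes, leukocytes, endothelial cells and melanocytes, KRT1, LYZ, TYROBP and TYR were listed at 0 in all 48 libraries and KRT14 alone exceeded 0.9 TPM. The 4 keratinocyte markers summed to 14.1 to 79.0 TPM in VP64_A, 2.17 to 12.8 in VP64_Ctrl and at most 1.66 in the CRISPRko arm. The labels do not say whether the 3 libraries of a condition came from separate cultures. The study describes its in vitro replicates, in general terms, as independent and biological. The p-values measure the spread between these libraries, which may be technical where cultures were shared.

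Promoter sequence is shown first because several members share short elements that bind the unfolded protein response factors. RefSeq promoter windows (GRCh38.p14, 250 bases before to 50 after the start) were held for 31 of the 36 members, 43 windows in all, and not for PDIA3, FKBP10, FKBP14, SEC24D and KDELR2. They were searched on both strands for the ER stress response element ERSE (CCAAT, 9 bases of any kind, then CCACG), for ERSE-II (ATTGG, 1 base, then CCACG) and for the UPRE core (TGACGTGG). An ERSE match was found in 7 of the 31 members (22.6%): HSPA5, HSP90B1, CALR, CANX, CRELD2, PDIA6 and XBP1. Over all 27305 genes with a window, 25 (0.0916%) held one. ERSE-II was matched in 3 members (9.68%), HERPUD1, SDF2L1 and HYOU1, and in 19 genes (0.0696%) of the whole set. The UPRE core was matched in HYOU1, SEC23A and KDELR3 (9.68%) and in 253 genes overall (0.927%). HYOU1 held 2 ERSE-II matches, of which 1 overlaps its UPRE core match, and HSP90B1 held 2 ERSE matches.
The stretches before the start that do not overlap an annotated untranslated exon are printed for 5 members that rose in every cell group, 5′ to 3′ on the strand of the gene, with the matched letters in capitals. They cover chr9:125241383-125241593 (minus strand), chr16:56931892-56932141 (plus strand), chr22:21642052-21642301 (plus strand), chr11:119057228-119057455 (minus strand) and chr22:28800598-28800819 (minus strand) of GRCh38.p14.
HSPA5: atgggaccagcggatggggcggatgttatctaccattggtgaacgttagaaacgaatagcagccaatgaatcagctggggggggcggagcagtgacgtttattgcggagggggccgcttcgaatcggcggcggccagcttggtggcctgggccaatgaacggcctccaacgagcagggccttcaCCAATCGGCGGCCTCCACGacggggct
HERPUD1: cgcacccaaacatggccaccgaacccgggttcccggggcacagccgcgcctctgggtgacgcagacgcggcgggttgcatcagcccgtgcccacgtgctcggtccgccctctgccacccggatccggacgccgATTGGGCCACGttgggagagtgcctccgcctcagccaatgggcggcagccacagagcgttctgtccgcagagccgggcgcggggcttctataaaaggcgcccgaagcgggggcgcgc
SDF2L1: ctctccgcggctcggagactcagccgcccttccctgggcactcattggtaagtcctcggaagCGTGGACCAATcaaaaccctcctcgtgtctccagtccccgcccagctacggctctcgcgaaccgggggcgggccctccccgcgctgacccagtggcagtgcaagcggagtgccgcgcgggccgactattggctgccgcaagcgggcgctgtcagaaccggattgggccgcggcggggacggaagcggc
HYOU1: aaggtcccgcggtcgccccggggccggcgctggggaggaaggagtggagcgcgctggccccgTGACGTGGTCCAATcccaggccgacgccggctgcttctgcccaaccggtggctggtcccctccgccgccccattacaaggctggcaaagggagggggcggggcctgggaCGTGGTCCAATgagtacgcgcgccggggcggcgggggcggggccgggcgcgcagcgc
XBP1: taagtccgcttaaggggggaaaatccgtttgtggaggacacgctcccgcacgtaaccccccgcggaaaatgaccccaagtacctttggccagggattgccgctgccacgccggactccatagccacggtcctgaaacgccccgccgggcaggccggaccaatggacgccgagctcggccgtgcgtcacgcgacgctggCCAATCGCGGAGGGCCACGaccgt
In HSPA5 the ERSE match began 66 bases before the start, in XBP1 52 bases before it, and in HERPUD1 the ERSE-II match began 117 bases before it. The SDF2L1 match lies on the opposite strand and begins 188 bases before the start, and both ERSE-II matches of HYOU1, also on the opposite strand, begin 185 and 79 bases before it. The UPRE core match of HYOU1 lies on the gene's own strand and begins 188 bases before the start. A match is a string of letters and was not tested for binding.

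**Figure D1:**
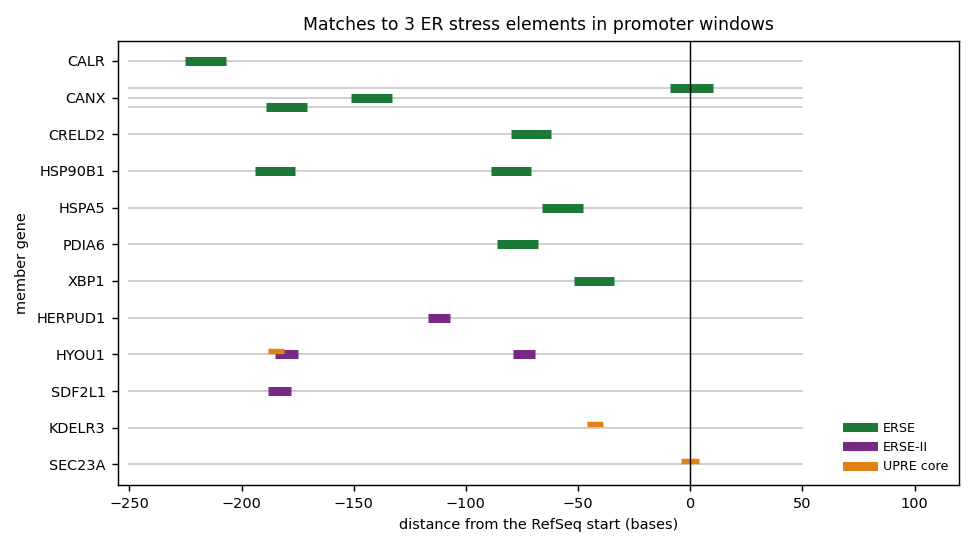
Positions of ERSE (green), ERSE-II (purple) and UPRE core (orange) matches in the promoter windows of the 12 members that hold one, as distance from the RefSeq start in bases; each grey line is a window with a match, from 250 bases before to 50 after the start. CANX has 3 such windows, and the ERSE-II matches lie in HERPUD1, HYOU1 and SDF2L1 alone.

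On the TPM scale, which accounts for transcript length, the 36 members spanned a wide range of levels. Over the 48 libraries PPIB, a prolyl isomerase of collagen folding, was the most abundant with a median of 1897 (1272 to 2676) TPM (lowest and highest library in parentheses). P4HB, the disulphide isomerase that is also a subunit of collagen prolyl 4-hydroxylase, followed at 1274 (868 to 2224), then the lectin chaperone CALR at 998 (636 to 1524), the Hsp70 chaperone HSPA5 (BiP) at 774 (407 to 1455), PDIA6 at 649 (440 to 925) and the Hsp90 chaperone HSP90B1 at 571 (401 to 827). The ranges of neighbours in this order overlapped. HERPUD1 stood in the middle at 171 (75.3 to 438) TPM. At the low end were SEL1L at 7.04 (3.62 to 15.3), the cargo receptor MIA3 at 5.24 (1.34 to 12.7), EDEM1 at 3.02 (0.97 to 8.24) and SYVN1 at 2.98 (1.17 to 20.5), all of ERAD except MIA3. Counts for PDIA3 are uncertain, because its processed copy PDIA3P1 is listed with 2.07% as many counts and reads could be shared between them. Copies were looked for only by names made of the gene symbol, a P and any digits. Copies of other members under other names were not looked for. Exons of 19 members overlap a gene on the opposite strand in the GENCODE annotation and those of 6 overlap another gene on their own strand, as SYVN1 does with FAU and MIR6751. The strand setting is not given, so reads from such partners may not have been told apart.

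Cytokine exposure raised part of this machinery, most broadly at 12 h by the number of members called. Against 0 h in the same cell group, 14 of 36 members were called higher in H47_Ctrl at 12 h, 15 in H47_KO, 24 in VP64_Ctrl and 17 in VP64_A, at an adjusted p under 0.05 over all genes tested. Of all genes, 11.3%, 14.4%, 15.3% and 12.6% were called higher in the same comparisons. The median log2 fold change of the members at 12 h was 0.32 in H47_Ctrl, 0.51 in H47_KO, 0.73 in VP64_Ctrl and 0.54 in VP64_A, beside -0.01, -0.05, -0.01 and 0.01 over all genes. At 6 h the members called higher numbered 4 in H47_Ctrl (10.3% of all genes), 10 in H47_KO (13.2%), 16 in VP64_Ctrl (16.2%) and 5 in VP64_A (11.4%), so that in H47_Ctrl and VP64_A the share was close to that of all genes. At 24 h they numbered 8 in H47_Ctrl (6.53%), 5 in H47_KO (9.07%), 12 in VP64_Ctrl (10.4%) and 13 in VP64_A (9%). Lower calls were few: CREB3L1 in H47_KO at 12 h (13% of all genes were called lower), ATF6 in H47_KO at 24 h (6.78%) and SYVN1 in VP64_Ctrl at 6 h (12.6%). The ATF6 and SYVN1 calls were lost without the libraries that stood apart. At 24 h the counts leaned on single libraries: in H47_Ctrl 5 and 4 members were called without 0 h replicate 3 or 24 h replicate 2, in H47_KO 3 without 0 h replicate 1 or 2, and in VP64_A 7 and 6 without 0 h replicate 3 or 24 h replicate 1. All 3 times of a cell group share their 0 h libraries. Fewer cells and less RNA per cell cannot be told apart in bulk RNA.

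**Figure D2:**
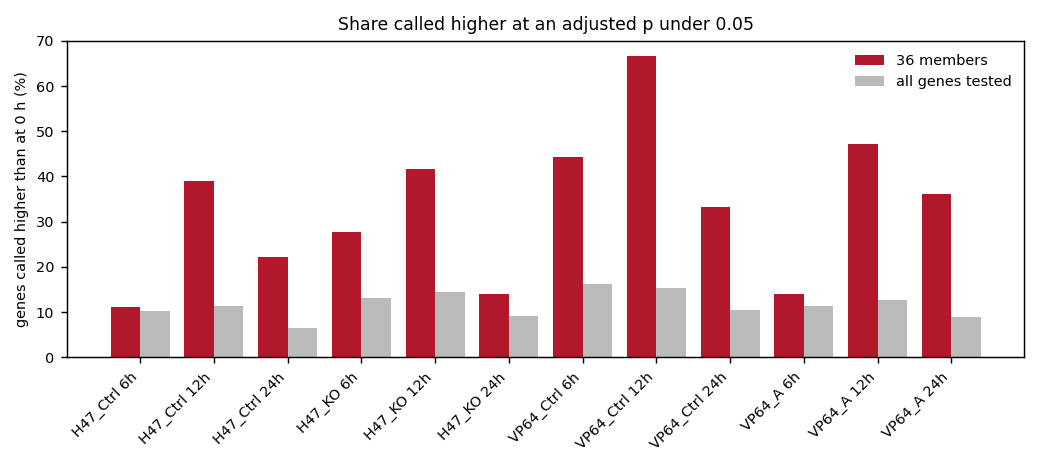
Share of genes called higher than at 0 h (y axis, percent, from 0) for the 36 members (red) and for all genes tested (grey) in the 12 comparisons with 0 h, 4 cell groups by 3 times. The largest gap is in VP64_Ctrl at 12 h, with 24 of 36 members beside 15.3% of all genes, and the smallest in H47_Ctrl at 6 h, with 4 members beside 10.3%.

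The counts in VP64_Ctrl leaned on a library that stood apart. Without the 0 h replicate 3, VP64_Ctrl gave 10 members called in either direction at 6 h in place of 17, 18 at 12 h in place of 24 and 8 at 24 h in place of 12. The shares of all genes given above include that library. In H47_KO, leaving out the libraries that stood apart took away the 24 h calls of SDF2L1, HERPUD1 and ATF6 and added HYOU1. At 12 h CANX and PDIA3 were lost there and CRTAP was gained as a lower call. At 6 h CANX and SEC23A were lost and XBP1 was gained as a higher call. Under abundance-dependent (loess) scaling the split of calls shifted. At 6 h 8 members were higher and 6 lower in VP64_Ctrl, in place of 16 and 1, and 8 and 2 in H47_KO, in place of 10 and 0. In VP64_A they were 5 and 3 in place of 5 and 0, and in H47_Ctrl 4 and 1 in place of 4 and 0. At 24 h H47_KO had 11 and 0 in place of 5 and 1, and 4 and 0 by DESeq2. At 12 h the split in VP64_Ctrl became 17 and 2 in place of 24 and 0. All genes shifted as well. At 6 h 1608 were higher and 1527 lower in VP64_Ctrl with loess offsets, in place of 1777 and 1388. The 6 h splits were 1465 and 1218 in H47_KO (1443 and 1182 before), 1253 and 907 in VP64_A (1256 and 651) and 1142 and 756 in H47_Ctrl (1130 and 614). At 24 h H47_KO had 1069 and 789 (994 and 743), and at 12 h VP64_Ctrl had 1521 and 1557 (1675 and 1263). The set called in all 4 cell groups at 12 h was steadier. At 12 h 11 members were called higher in all 4 groups (6.28% of the 10691 genes tested in both arms), at 6 h 3 (6.27%) and at 24 h 4 (3.41%). The 11 were HSPA5, HYOU1, SDF2L1, DNAJB9, DNAJC3 and MANF among the chaperones, SEL1L, HERPUD1 and EDEM1 of ERAD, and the transcription factors XBP1 and CREB3L2. Of these, 8 were called in all 4 groups under every alternative run, and SEL1L, EDEM1 and XBP1 were not; with single libraries left out the count lay between 9 and 11. The 4 at 24 h were SDF2L1, DNAJB9, DNAJC3 and EDEM1. Of these, 2 were left without H47_Ctrl 24 h replicate 2, H47_KO 0 h replicate 2 or VP64_A 0 h replicate 2 or 3, and 1 without VP64_A 24 h replicate 1. Without the libraries that stood apart SDF2L1 left this set and HYOU1 joined it. The 3 at 6 h were DNAJB9, HERPUD1 and CREB3L2.

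**Figure D3:**
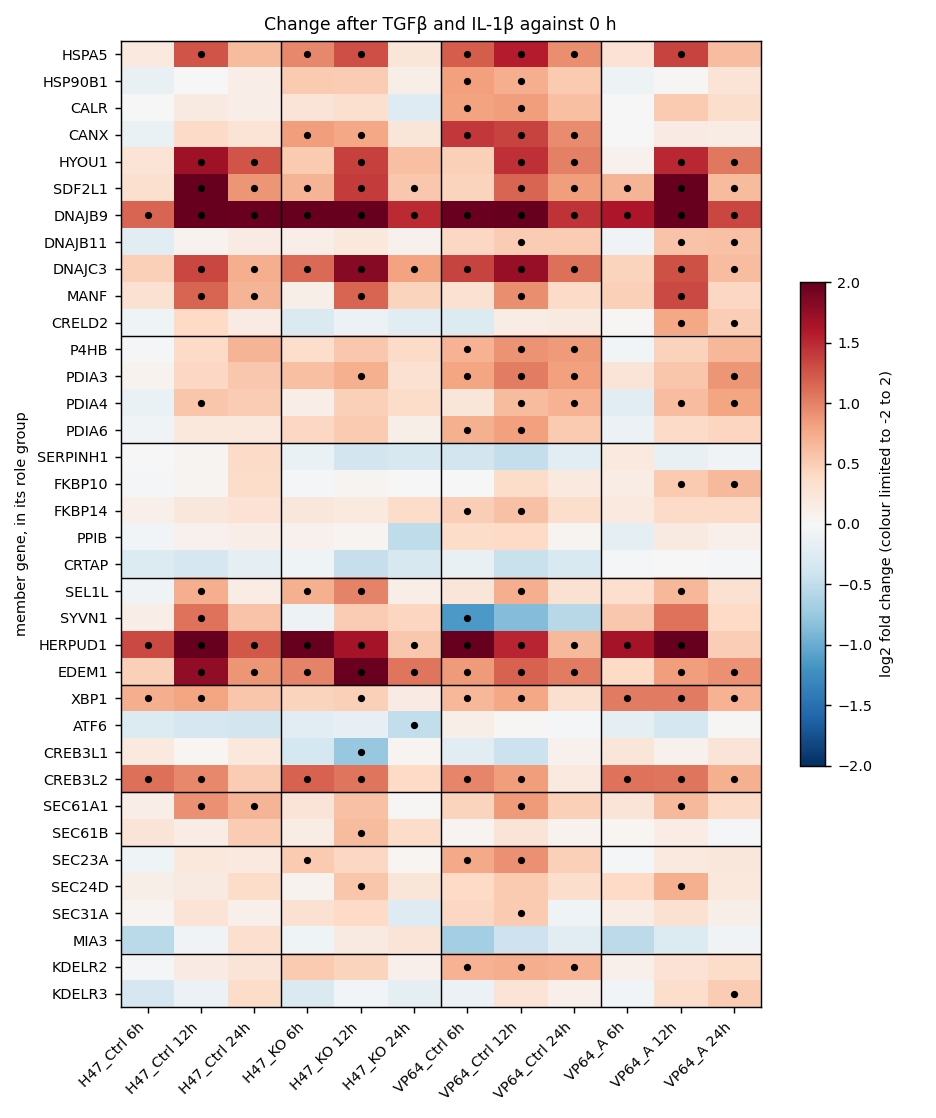
Log2 fold change against 0 h (colour, limited to -2 to 2) of the 36 members (rows, in role groups divided by lines) in each cell group at 6, 12 and 24 h (columns); a dot marks an adjusted p under 0.05. DNAJB9 is called in all 12 comparisons, and SERPINH1, PPIB, CRTAP and MIA3 in none.

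DNAJB9, an ER-resident J-protein co-chaperone of BiP that lies at chr7:108569867-108574850, plus strand, rose the most. Its 3 libraries at 0 h held 24.3, 21.7 and 18.4 normalized CPM in H47_Ctrl, and at 12 h 172, 148 and 192, a log2 fold change of 2.97 ± 0.19, adjusted p = 3.53e-14 (± is the SE throughout for fold changes, with 3 libraries a condition). In H47_KO it went from 17.1, 18.5 and 30.5 to 178, 161 and 190 (2.99 ± 0.18, adjusted p = 1.65e-14). The libraries of the 2 times were far apart in both groups. In the CRISPRa arm DNAJB9 rose from 16.5, 13.3 and 22.6 to 118, 78.1 and 124 in VP64_Ctrl (2.62 ± 0.22, adjusted p = 2.85e-11) and from 15.5, 11.6 and 19.1 to 169, 91.6 and 98.7 in VP64_A (2.95 ± 0.22, adjusted p = 3.43e-12). It was called already at 6 h in every group, with log2 fold changes of 1.17 in H47_Ctrl, 2.02 in H47_KO, 1.97 in VP64_Ctrl and 1.62 in VP64_A, and at 24 h (1.98 in H47_Ctrl, 1.5 in H47_KO, 1.44 in VP64_Ctrl and 1.34 in VP64_A).

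SDF2L1, a component of the BiP chaperone complex, was raised at 12 h in every group, most in H47_Ctrl and VP64_A. Its H47_Ctrl libraries held 21.9, 19.8 and 22.7 normalized CPM at 0 h and 106, 75.2 and 78.7 at 12 h (2.02 ± 0.19, adjusted p = 8.78e-10). VP64_A went from 18.8, 24.4 and 16.8 to 77.9, 82.5 and 114 (2.19 ± 0.18, adjusted p = 1.96e-11) and VP64_Ctrl from 18.5, 19.9 and 20.2 to 41.6, 42.9 and 47.7 (1.17 ± 0.18, adjusted p = 5.16e-06), and H47_KO rose by 1.39 ± 0.19, adjusted p = 5.61e-07. No library at 12 h overlapped those at 0 h in any group.
HYOU1, an Hsp70-like nucleotide exchange factor of BiP, was called in all 4 groups at 12 h and in none at 6 h. In H47_Ctrl the libraries held 16.2, 15.1 and 14.05 normalized CPM at 0 h, 10.6, 23.5 and 22.1 at 6 h and 46.3, 56.9 and 45.3 at 12 h. The 6 h libraries straddled those at 0 h (log2 fold change 0.27 ± 0.25, adjusted p = 0.535), and all 12 h libraries lay above them (1.70 ± 0.24, adjusted p = 2.07e-06). At 12 h the log2 fold changes were 1.70 in H47_Ctrl, 1.37 in H47_KO, 1.45 in VP64_Ctrl and 1.5 in VP64_A.
DNAJC3, a co-chaperone that also inhibits PERK, went from 42.9, 38.8 and 37.5 to 109, 101 and 92.5 normalized CPM in H47_Ctrl (1.34 ± 0.20, adjusted p = 3.32e-06) and from 24.98, 27.3 and 18.6 to 66.3, 95.02 and 77.3 in VP64_Ctrl (1.74 ± 0.18, adjusted p = 5.23e-09). H47_KO rose by 1.82 ± 0.19, adjusted p = 5.85e-09 and VP64_A by 1.28 ± 0.18, adjusted p = 1.67e-06. The 12 h libraries lay above all 0 h libraries in each group.

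HSPA5 and MANF are described because of their values, as both fell outside the rule for showing single libraries. HSPA5, BiP itself, lies at chr9:125234853-125241382, minus strand. Its H47_Ctrl libraries held 1309, 1658 and 1420 normalized CPM at 0 h and 3495, 3119 and 3861 at 12 h (1.26 ± 0.31, adjusted p = 0.0028), and the VP64_A libraries 1937, 1544 and 2012 and 5191, 3474 and 5290 (1.35 ± 0.26, adjusted p = 0.000221). In H47_KO and VP64_Ctrl the third library at 0 h, which stood apart, was low, at 981 beside 1496 and 1727 and at 587 beside 1194 and 1319. Their 12 h libraries nevertheless lay above every 0 h library, at 3734, 3337 and 3191 (1.29 ± 0.31, adjusted p = 0.00175) and 3214, 2343 and 3691 (1.58 ± 0.26, adjusted p = 2.26e-05). MANF, a small secreted ER stress protein, rose at 12 h by 1.17 in H47_Ctrl, 1.16 in H47_KO, 0.92 in VP64_Ctrl and 1.32 in VP64_A on the log2 scale, with adjusted p of at most 0.000686. At 6 h it was called in no group (log2 fold changes of 0.12 to 0.48).

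Among the other chaperones the Hsp90 and lectin members moved in fewer groups. HSP90B1 and CALR were called at 6 and 12 h in VP64_Ctrl alone, where the log2 fold changes at 12 h were 0.73 ± 0.23, adjusted p = 0.0194 and 0.83 ± 0.26, adjusted p = 0.0164, and neither was called there without the 0 h replicate 3 or with loess offsets. In the other 3 groups HSP90B1 gave 0.00, 0.51 and 0.02 at 12 h and CALR 0.19, 0.32 and 0.52. CANX, the membrane-bound lectin chaperone, was called at 6 and 12 h in H47_KO and at all 3 times in VP64_Ctrl, the groups whose 0 h replicate 3 stood apart. Its VP64_Ctrl libraries held 318, 426 and 159 normalized CPM at 0 h and 678, 740 and 878 at 12 h. Without that library the 6 and 12 h calls in VP64_Ctrl stood and the 24 h call was lost, and neither call in H47_KO stood without its own. DNAJB11, a BiP co-chaperone, was called at 12 h in VP64_Ctrl and VP64_A (0.50 and 0.57) and at 24 h in VP64_A (0.59). CRELD2 was called in VP64_A at 12 and 24 h (0.77 and 0.49). Several of these calls depended on 1 library, and the values in parentheses are the log2 fold changes without it. The call of CALR in VP64_Ctrl at 12 h was lost without 0 h replicate 3 or 12 h replicate 3 (0.50 to 0.66). The call of HSP90B1 in VP64_Ctrl at 12 h was lost without 0 h replicate 3 or 12 h replicate 3 (0.45 to 0.55). The call of DNAJB11 in VP64_Ctrl at 12 h was lost without 0 h replicate 2 or 3 or 12 h replicate 1 or 3 (0.32 to 0.53). The call of DNAJB11 in VP64_A at 12 h was lost without 0 h replicate 2 or 12 h replicate 1 or 3 (0.41 to 0.55). The call of DNAJB11 in VP64_A at 24 h was lost without 0 h replicate 2 or 3 or 24 h replicate 1, 2 or 3 (0.43 to 0.66). The call of CRELD2 in VP64_A at 24 h was lost without 0 h replicate 1 or 3 or 24 h replicate 1 or 2 (0.36 to 0.52).

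**Figure D4:**
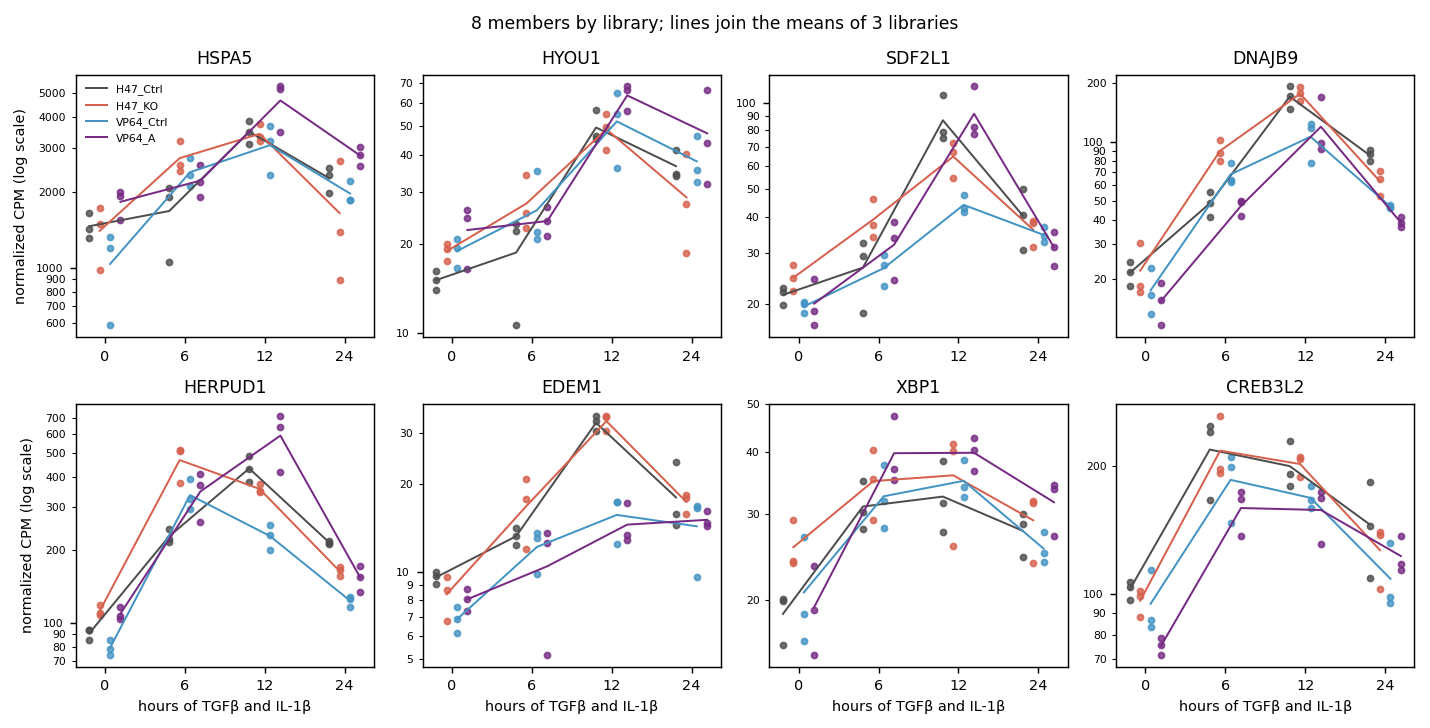
Normalized CPM (log scale) of 8 members by hours of TGFβ and IL-1β; each point is a library, lines join the means of 3 libraries, and colours are the 4 cell groups. HSPA5, HYOU1, SDF2L1, DNAJB9 and XBP1 are highest at 12 h in all 4 groups and CREB3L2 at 6 h, while HERPUD1 is highest at 6 h in H47_KO and VP64_Ctrl and at 12 h in the other groups; the 2 arms were scaled separately.

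ERAD genes included the largest early rise. HERPUD1, which recruits ERAD substrates to the ubiquitin ligase complex and lies at chr16:56932142-56944864, plus strand, went from 93.6, 93.7 and 84.8 normalized CPM at 0 h to 216, 222 and 244 at 6 h and 431, 380 and 486 at 12 h in H47_Ctrl. In H47_KO the order of the later times was different, with 107, 119 and 110 at 0 h, 378, 517 and 510 at 6 h and 347, 348 and 373 at 12 h. VP64_Ctrl had the same order as H47_KO (74.1, 84.9 and 78.2, then 295, 323 and 390, then 230, 200 and 253), and VP64_A the order of H47_Ctrl (104, 117 and 107, then 261, 371 and 412, then 641, 417 and 713). Libraries at 6 and 12 h lay above all those at 0 h in every group. The log2 fold changes at 6 h were 1.32 in H47_Ctrl, 2.06 in H47_KO, 2.08 in VP64_Ctrl and 1.67 in VP64_A, with adjusted p of at most 5.68e-08.
EDEM1, a mannosidase-like protein that picks out glycoproteins for degradation, rose from 9.05, 9.66 and 9.99 normalized CPM at 0 h to 33.1, 34.3 and 30.5 at 12 h in H47_Ctrl (1.77 ± 0.20, adjusted p = 4e-08). In VP64_A it rose from 8.07, 7.29 and 8.73 to 17.3, 13.4 and 12.9 (0.84 ± 0.26, adjusted p = 0.0205), and this call was lost when VP64_A 0 h replicate 1 or 2 or 12 h replicate 1 was left out. H47_KO gave 1.98 ± 0.20, adjusted p = 1.41e-09 and VP64_Ctrl 1.18 ± 0.26, adjusted p = 0.000734. SEL1L, the scaffold of the ubiquitin ligase complex, gave 12 h log2 fold changes of 0.73 in H47_Ctrl, 0.99 in H47_KO, 0.73 in VP64_Ctrl and 0.66 in VP64_A, the last close to the threshold (adjusted p = 0.047), and lost the call in VP64_A when any of the libraries but 1 was left out. SYVN1, the ubiquitin ligase, was called higher at 12 h in H47_Ctrl (1.08 ± 0.36, adjusted p = 0.0335). Its lower call in VP64_Ctrl at 6 h rested on 0 h libraries of 9.51, 6.38 and 22.2 normalized CPM against 5.01, 5.80 and 6.37 and was lost without the 0 h replicate 3. The call of SEL1L in H47_Ctrl at 12 h was lost without 0 h replicate 3 or 12 h replicate 2 (0.59 to 0.64). The call of SEL1L in VP64_Ctrl at 12 h was lost without 0 h replicate 1 or 12 h replicate 2 (0.38 to 0.62). The call of SYVN1 in H47_Ctrl at 12 h was lost without 0 h replicate 1 or 3 or 12 h replicate 1 or 3 (0.90 to 1.14). The call of SYVN1 in VP64_Ctrl at 6 h was lost without 0 h replicate 3 or 6 h replicate 1, 2 or 3 (-1.20 to -0.53).

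Among the ER stress transcription factors, CREB3L2 and XBP1 rose while ATF6 and CREB3L1 were called higher in no comparison with 0 h. CREB3L2, an ER-anchored factor of the secretory pathway, was called at 6 and 12 h in all 4 groups. Its H47_Ctrl libraries held 107, 96.9 and 104 normalized CPM at 0 h, 166, 242 and 250 at 6 h and 192, 180 and 230 at 12 h, and the VP64_A libraries 71.9, 75.6 and 78.6, 137, 168 and 174 and 168, 131 and 174. None of the later libraries overlapped those at 0 h. The log2 fold changes at 6 h were 1.1 in H47_Ctrl, 1.18 in H47_KO, 0.97 in VP64_Ctrl and 1.08 in VP64_A, with adjusted p of at most 4.96e-05, and at 24 h the call held in VP64_A alone (0.71 ± 0.17, adjusted p = 0.00355). With loess offsets it was also called at 24 h in H47_Ctrl (0.44) and H47_KO (0.52).
XBP1, the target of IRE1, went from 15.5, 23.5 and 19.1 normalized CPM at 0 h to 36.9, 35.01 and 47.3 at 6 h in VP64_A (1.04 ± 0.18, adjusted p = 8.1e-05) and from 20.1, 16.3 and 19.99 to 34.9, 27.9 and 30.2 in H47_Ctrl (0.73 ± 0.19, adjusted p = 0.00554). In H47_KO, with 24.04, 23.8 and 29.1 and 29.1, 35.2 and 40.3, the 6 h change was 0.44 ± 0.19, adjusted p = 0.0871 and the 12 h change 0.48 ± 0.18, adjusted p = 0.048. That 12 h call was lost when H47_KO 0 h replicate 1 or 2 or 12 h replicate 2 or 3 was left out. The ATF6 call ended without any H47_KO library at 0 h or replicate 2 or 3 at 24 h (-0.55 to -0.37). ATF6 gave log2 fold changes of -0.49 to 0.11 over the 12 comparisons and was called lower in 1 comparison, that in H47_KO at 24 h. CREB3L1, a factor linked to collagen secretion, gave -0.75 to 0.26 and was called lower in 1 comparison, that in H47_KO at 12 h (-0.75 ± 0.20, adjusted p = 0.00415).

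The disulphide isomerases, which form and exchange disulphide bonds, were called in more comparisons of the CRISPRa arm than of the CRISPRko arm under TMM scaling. PDIA4 held 236, 209 and 232 normalized CPM at 0 h and 393, 356 and 424 at 24 h in VP64_A (0.79 ± 0.16, adjusted p = 0.0004), and 175, 175 and 157 and 278, 272 and 267 in VP64_Ctrl (0.69 ± 0.16, adjusted p = 0.0019). In H47_Ctrl it went from 238, 222 and 212 at 0 h to 346, 284 and 356 at 12 h (0.55 ± 0.18, adjusted p = 0.0281), and in H47_KO the 12 h change just missed the threshold (0.47 ± 0.18, adjusted p = 0.0506). No late library of these pairs overlapped the 0 h libraries. PDIA3, which works with the lectin chaperones, went from 764, 671 and 719 to 1434, 1275 and 1252 in VP64_A at 24 h (0.88 ± 0.21, adjusted p = 0.00319) and from 537, 555 and 348 to 961, 862 and 719 in VP64_Ctrl (0.82 ± 0.21, adjusted p = 0.00572). In the CRISPRko arm PDIA3 was called in H47_KO at 12 h (0.71 ± 0.27, adjusted p = 0.0473), and not without the libraries that stood apart. P4HB was called in VP64_Ctrl alone, at all 3 times, with 0.86 ± 0.25, adjusted p = 0.0162 at 24 h, and so was PDIA6 at 6 and 12 h; without the 0 h replicate 3 of VP64_Ctrl neither was called. P4HB gave 0.68, 0.38 and 0.66 at 24 h in the other groups. The call of PDIA4 in H47_Ctrl at 12 h was lost without 0 h replicate 1, 2 or 3 or 12 h replicate 1 or 3 (0.50 to 0.60). The call of PDIA3 in H47_KO at 12 h was lost without 0 h replicate 1 or 3 or 12 h replicate 1, 2 or 3 (0.52 to 0.79). The call of P4HB in VP64_Ctrl at 24 h was lost without 0 h replicate 3 or 24 h replicate 1 or 2 (0.60 to 0.84). Loess offsets changed this picture at 24 h, when P4HB, PDIA3 and PDIA4 were called higher in all 4 groups. In the order H47_Ctrl, H47_KO, VP64_Ctrl and VP64_A, the log2 fold changes were then 0.53, 0.59, 0.54 and 0.43 for P4HB, 0.44, 0.50, 0.58 and 0.69 for PDIA3 and 0.44, 0.53, 0.54 and 0.65 for PDIA4. P4HB in VP64_Ctrl lost its earlier calls under these offsets, with -0.14 (adjusted p = 0.36) at 6 h and 0.22 (adjusted p = 0.133) at 12 h. Whether the disulphide isomerases responded differently in the 2 arms was not tested.

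Collagen chaperones and prolyl isomerases had the smallest share of calls against 0 h among the 8 roles. Of 60 values (5 genes in 12 comparisons), 4 were called higher and 0 lower by edgeR, 12 had an unadjusted p under 0.05, and DESeq2 called 5. Over all genes 6.53% to 16.2% were called higher in the single comparisons, so the share called by edgeR was no larger than the usual one. An unadjusted p under 0.05 was held by 2295 to 4177 of 10962 genes in comparisons of the CRISPRko arm. In those of the CRISPRa arm it was held by 2768 to 4342 of 10980. The 12 of 60 was no larger a share than these. FKBP10, a prolyl isomerase of collagen folding, was called in VP64_A at 12 and 24 h (0.53 ± 0.19, adjusted p = 0.0426 and 0.65 ± 0.19, adjusted p = 0.016), and FKBP14 in VP64_Ctrl at 6 and 12 h (0.49 ± 0.18, adjusted p = 0.0361 and 0.59 ± 0.17, adjusted p = 0.0115). Without the 0 h replicate 3 of VP64_Ctrl the FKBP14 calls were lost. The call of FKBP10 in VP64_A at 12 h was lost without 0 h replicate 1, 2 or 3 or 12 h replicate 2 or 3 (0.40 to 0.57). The call of FKBP10 in VP64_A at 24 h was lost without 0 h replicate 3 or 24 h replicate 2 (0.56 to 0.58). The call of FKBP14 in VP64_Ctrl at 6 h was lost without 0 h replicate 2 or 3 or 6 h replicate 1 or 3 (0.39 to 0.51). The call of FKBP14 in VP64_Ctrl at 12 h was lost without 0 h replicate 2 or 3 (0.47 to 0.53). SERPINH1, the collagen chaperone HSP47, held 320, 358 and 330 normalized CPM at 0 h and 442, 496 and 370 at 24 h in H47_Ctrl (0.38 ± 0.26, adjusted p = 0.458) and 325, 317 and 286 and 312, 324 and 252 in VP64_A (-0.07 ± 0.21, adjusted p = 0.892). Its log2 fold changes lay between -0.48 and 0.38 over the 12 comparisons, those of PPIB between -0.50 and 0.40 and those of CRTAP, a subunit of the prolyl 3-hydroxylase complex, between -0.46 and 0.01. Loess offsets called lower values at 6 h. PPIB was then lower in H47_KO (-0.32), VP64_Ctrl (-0.35) and VP64_A (-0.41). In VP64_Ctrl FKBP10, SERPINH1 and CRTAP were lower as well (-0.51, -0.93 and -0.64). DESeq2 called CRTAP lower in 1 comparison and SERPINH1 and PPIB in 0. By edgeR 1, 0 and 2 of the 12 values of SERPINH1, PPIB and CRTAP had an unadjusted p under 0.05.

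In the translocon, SEC61A1, the channel subunit, was called at 12 h in H47_Ctrl, VP64_Ctrl and VP64_A and just missed the threshold in H47_KO. Its H47_Ctrl libraries held 566, 568 and 599 normalized CPM at 0 h and 1017, 1130 and 1135 at 12 h (0.92 ± 0.22, adjusted p = 0.0028). In H47_KO the 0 h libraries were more spread, at 1014, 774 and 598, against 1208, 1108 and 1249 at 12 h (0.58 ± 0.22, adjusted p = 0.0505). With loess offsets SEC61A1 was called in H47_KO (0.39) and not in VP64_Ctrl (0.26). SEC61B, a small subunit, was called at 12 h in H47_KO (0.63 ± 0.17, adjusted p = 0.00659), with log2 fold changes of -0.04 to 0.51 in the other 3 groups over the 3 times. Of the COPII genes, SEC24D, a cargo adaptor of the inner coat, was called at 12 h in H47_KO and VP64_A (0.56 ± 0.15, adjusted p = 0.00426 and 0.71 ± 0.21, adjusted p = 0.0133), SEC23A at 6 h in H47_KO and at 6 and 12 h in VP64_Ctrl (0.91 ± 0.19, adjusted p = 0.000541 at 12 h), and SEC31A of the outer coat at 12 h in VP64_Ctrl (0.53 ± 0.18, adjusted p = 0.0325). MIA3, which loads procollagen into COPII carriers, gave -0.68 to 0.34 and was called by neither edgeR nor DESeq2 (0 of 12 each), with 2 of 12 values at an unadjusted p under 0.05. KDELR2 was called at 6, 12 and 24 h in VP64_Ctrl (0.73 ± 0.19, adjusted p = 0.0053 at 12 h), and KDELR3 at 24 h in VP64_A (0.51 ± 0.16, adjusted p = 0.028). Without the 0 h replicate 3 of VP64_Ctrl, SEC23A and KDELR2 were still called at 6 and 12 h, and SEC31A and the 24 h call of KDELR2 were not. With loess offsets the 6 and 12 h calls of KDELR2 in VP64_Ctrl were lost, as were SEC31A there and SEC23A at 6 h in both groups. KDELR3 was then called lower at 6 h in H47_Ctrl, H47_KO and VP64_Ctrl (-0.38, -0.57 and -0.54). The call of SEC61A1 in VP64_A at 12 h was lost without 0 h replicate 1 or 3 or 12 h replicate 1 or 3 (0.53 to 0.63). The call of SEC61B in H47_KO at 12 h was lost without 12 h replicate 1 (0.43). The call of SEC24D in VP64_A at 12 h was lost without 0 h replicate 1 or 2 or 12 h replicate 3 (0.63 to 0.64). The call of SEC23A in H47_KO at 6 h was lost without 0 h replicate 1, 2 or 3 or 6 h replicate 1 or 2 (0.40 to 0.57). The call of SEC31A in VP64_Ctrl at 12 h was lost without 0 h replicate 1 or 3 or 12 h replicate 1 or 3 (0.42 to 0.55). The call of KDELR2 in VP64_Ctrl at 6 h was lost without 6 h replicate 3 (0.56). The call of KDELR3 in VP64_A at 24 h was lost without 0 h replicate 2 or 3 or 24 h replicate 1 or 3 (0.44 to 0.49).

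By 24 h some members had fallen back, while the median of all members had not fallen in H47_Ctrl. The highest mean was at 12 h for 19 members in H47_Ctrl, 21 in H47_KO, 24 in VP64_Ctrl and 19 in VP64_A, whereas 25.6%, 20.6%, 21.4% and 24.4% of all genes were highest then. It was at 24 h for 14 members in H47_Ctrl (23.1% of all genes) and 14 in VP64_A (22.2%). In H47_KO and VP64_Ctrl it was at 24 h for 3 members each, a smaller share than of all genes. Against 0 h, the median log2 fold change of the members in H47_Ctrl was 0.36 at 24 h and 0.32 at 12 h. At 24 h it was 0.2 in H47_KO, 0.43 in VP64_Ctrl and 0.41 in VP64_A, each below its 12 h value. Comparing 24 h with 12 h, a contrast chosen after these values were seen, 5 members were called lower and 0 higher in H47_Ctrl (8.64% of all genes were called in either direction), 11 lower and 1 higher in H47_KO (16.3%), 5 lower and 0 higher in VP64_Ctrl (8.38%) and 5 lower and 0 higher in VP64_A (6.38%). The 1 higher in H47_KO was CREB3L1 (0.80, adjusted p = 0.00438). Without the libraries that stood apart, H47_KO lost the calls of HSPA5, HYOU1 and SEC31A and kept that of CREB3L1. With loess offsets H47_Ctrl and VP64_A each had 6 lower and 1 higher. Over all genes these offsets gave 569 lower and 552 higher in H47_Ctrl and 402 lower and 459 higher in VP64_A. Leaving out H47_KO 24 h replicate 1 gave 20 calls in that group, leaving out VP64_Ctrl 12 h replicate 3 or any of its 24 h libraries gave 2 or 3, and leaving out VP64_A 12 h replicate 2 gave 3. DNAJB9, DNAJC3 and HERPUD1 fell in all 4 groups, as did 1.45% of the genes tested in both arms. The DNAJC3 call of H47_Ctrl was lost without any 1 of its 6 libraries (-0.68 to -0.52), and those of VP64_A and VP64_Ctrl without some (-0.67 to -0.57 and -0.61 to -0.50). DNAJB9 fell by 0.99, 1.49, 1.18 and 1.61 on the log2 scale in H47_Ctrl, H47_KO, VP64_Ctrl and VP64_A, and was still above its 0 h level in each. HERPUD1 fell by 1.01, 1.12, 0.88 and 1.94 in the same order. HSPA5 gave -0.62, -1.05, -0.64 and -0.73 and was called in H47_KO alone (adjusted p = 0.0155), where the 24 h replicate 3, which stood apart, was the lowest of 2666, 1391 and 894; without the libraries that stood apart this call was lost. With loess offsets HSPA5 was also called lower in H47_Ctrl (-0.70) and VP64_A (-0.67).
The comparison of 24 h with 6 h gave different counts in each group: 6 members higher and 1 lower in H47_Ctrl (14.6% of all genes), 0 and 5 in H47_KO (24.2%), 1 and 2 in VP64_Ctrl (18.4%) and 5 and 1 in VP64_A (12.5%). In H47_KO and VP64_Ctrl the share of members called was below that of all genes. In H47_Ctrl and VP64_A it was not far above it. PDIA4 was higher at 24 h than at 6 h in H47_Ctrl, VP64_Ctrl and VP64_A (0.64, 0.45 and 1.01), while HERPUD1 was lower in H47_KO, VP64_Ctrl and VP64_A (-1.52, -1.44 and -1.18). These splits depended on the scaling: with loess offsets they were 10 higher and 1 lower in H47_Ctrl, 6 and 2 in H47_KO, 8 and 2 in VP64_Ctrl and 12 and 1 in VP64_A, and with DESeq2's size factors 0 and 2 in VP64_Ctrl. Over all genes the loess splits were 818 and 939, 1209 and 1165, 1030 and 982, and 771 and 835 in the same order of groups. In H47_KO the count of 5 lay between 2 and 12 with single libraries left out, with 12 called without 24 h replicate 1, 3 without 6 h replicate 2 or 24 h replicate 2, and 2 without 24 h replicate 3. In H47_Ctrl 3 were called without 6 h replicate 1 and 4 without 24 h replicate 2, and in VP64_A 3 without 6 h replicate 1 or 24 h replicate 1 or 3.

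Set beside the promoter elements, the 12 h calls were as follows. All 3 members with an ERSE-II match (HERPUD1, HYOU1 and SDF2L1) were called higher in all 4 groups, as were 2 of the 7 with an ERSE match (HSPA5 and XBP1). Of the 21 members whose windows held neither, 6 were called in all 4 groups (CREB3L2, DNAJB9, DNAJC3, EDEM1, MANF and SEL1L), and of the 5 without a window 0 were. HSP90B1, CALR, CANX, CRELD2 and PDIA6 hold an ERSE match and were called in 1 or 2 groups at 12 h. The windows are fixed at 300 bases, and elements outside them were not searched. These counts are a description.

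GLIS3 knockout was accompanied by few differences among the members. Comparing H47_KO with H47_Ctrl at the same time, 2 of 36 were called at 6 h (0.319% of all genes), both higher in H47_KO, and 0 at 0, 12 and 24 h (0.301%, 0.0821% and 0.21% of all genes). DESeq2 also called 0 at those 3 times. By edgeR an unadjusted p under 0.05 was held by 6, 3 and 5 of the 36 members, beside 1253, 842 and 1096 of all 10962 genes. HERPUD1 at 6 h held 216, 222 and 244 normalized CPM in H47_Ctrl and 378, 517 and 510 in H47_KO, without overlap (1.04 ± 0.15, adjusted p = 0.000397). DNAJB9 at 6 h held 48.9, 55.3 and 41.5 and 80.2, 87.7 and 103 (0.89 ± 0.18, adjusted p = 0.0157), also without overlap. The DNAJB9 call was lost when H47_Ctrl replicate 1 or 3 or H47_KO replicate 2 or 3 at 6 h was left out (log2 fold changes of 0.79 to 0.90), and that of HERPUD1 was kept in each case. Other settings called further members. With loess offsets PPIB and SEC61A1 were higher in H47_KO at 0 h, at 0.50 (adjusted p = 0.0223) and 0.47 (adjusted p = 0.0402). DESeq2 called the same pair at 6 h beside HERPUD1 and DNAJB9, at 0.67 (adjusted p = 0.0467) and 0.61 (adjusted p = 0.0354). CANX at 24 h was called lower without H47_KO 24 h replicate 1, at -1.05 (adjusted p = 0.0434), in place of -0.48 ± 0.28, adjusted p = 0.572. Over the 36 members the median log2 difference was 0.08 at 0 h, 0.33 at 6 h, 0.09 at 12 h and -0.20 at 24 h, beside 0.02, -0.03, -0.00 and 0.02 over all genes.

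**Figure D5:**
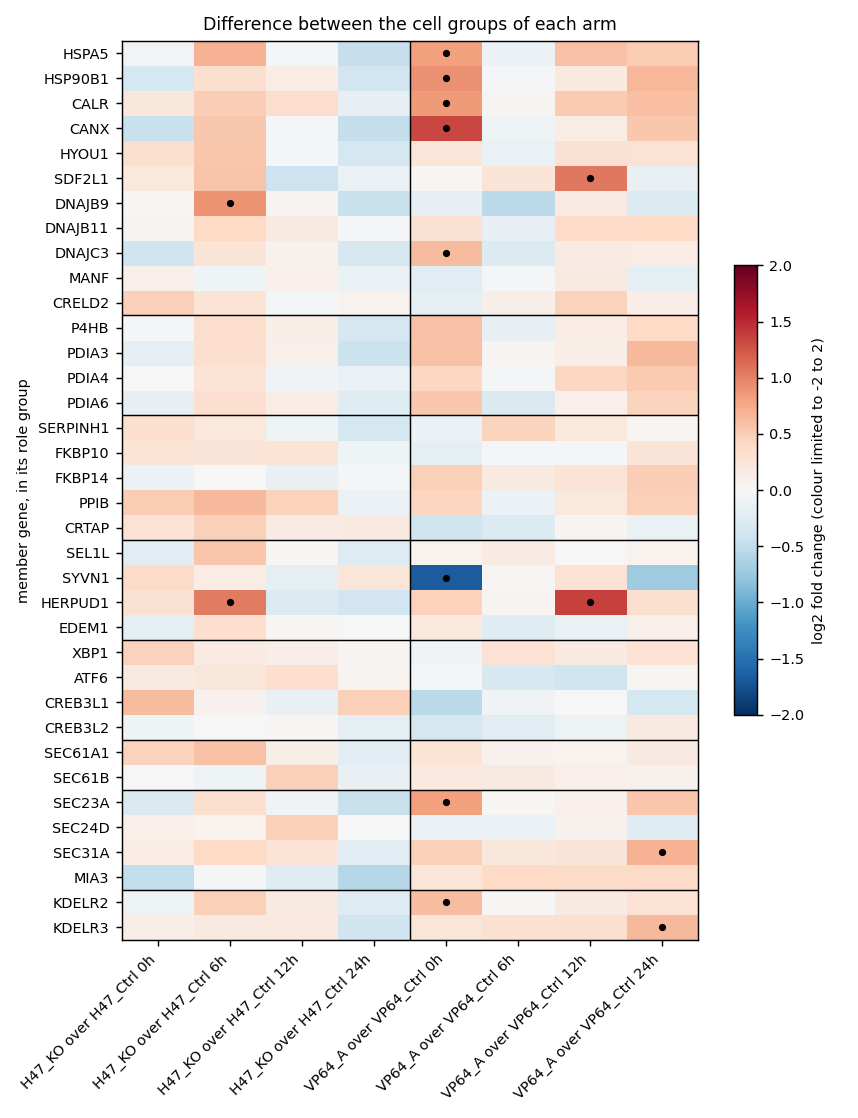
Log2 difference between the cell groups of each arm (colour, limited to -2 to 2) for the 36 members (rows, in role groups) at 0, 6, 12 and 24 h (columns), H47_KO over H47_Ctrl on the left and VP64_A over VP64_Ctrl on the right; a dot marks an adjusted p under 0.05. The dots on the left are HERPUD1 and DNAJB9 at 6 h, and 8 of the 12 on the right are at 0 h.

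In the CRISPRa arm 8 of 36 members differed between VP64_A and VP64_Ctrl before cytokine, 7 higher and 1 lower in VP64_A (9.41% of all genes were called). CANX held 318, 426 and 159 normalized CPM in VP64_Ctrl and 733, 855 and 698 in VP64_A (1.34 ± 0.31, adjusted p = 0.00415), and SEC23A 182, 211 and 171 and 330, 353 and 314 (0.82 ± 0.19, adjusted p = 0.00508). The groups did not overlap for either gene. HSPA5, HSP90B1, CALR, DNAJC3 and KDELR2 were higher by 0.82, 0.91, 0.85, 0.63 and 0.62 on the log2 scale, and SYVN1 was lower (-1.67 ± 0.40, adjusted p = 0.00605). Most of these calls rested on VP64_Ctrl 0 h replicate 3, and leaving out VP64_A 0 h replicate 1 or 3 left 3 calls. Without VP64_Ctrl 0 h replicate 3, 2 calls remained, CANX at 1.03 (adjusted p = 0.045) and SEC23A at 0.75 (adjusted p = 0.0338), while HSPA5 gave 0.54 (adjusted p = 0.221) and SYVN1 -1.03 (adjusted p = 0.137). With loess offsets the split at 0 h was 6 higher and 2 lower, beside 452 and 637 over all genes. HSPA5, HSP90B1 and CALR then gave 0.33, 0.52 and 0.46. KDELR2 lost its call, at 0.23 (adjusted p = 0.267), and CRTAP was called lower, at -0.65 (adjusted p = 0.00285). At 12 h the same offsets also called HSPA5, CALR and PDIA4 higher (0.47, 0.41 and 0.35).
At 6 h 0 members were called (3.76% of all genes), and DESeq2 called 0. By edgeR 2 members had an unadjusted p under 0.05, beside 1487 of all 10980 genes. At 12 h 2 were called (4.31%), both higher in VP64_A: HERPUD1, with 230, 200 and 253 normalized CPM in VP64_Ctrl and 641, 417 and 713 in VP64_A (1.37 ± 0.19, adjusted p = 6.56e-06), and SDF2L1, with 41.6, 42.9 and 47.7 and 77.9, 82.5 and 114 (1.06 ± 0.17, adjusted p = 8.49e-05). Neither overlapped, and both calls stood with any 1 library left out. At 24 h SEC31A and KDELR3 were higher in VP64_A (4.13% of all genes were called), SEC31A with 192, 170 and 187 and 297, 279 and 309 (0.69 ± 0.19, adjusted p = 0.0239) and KDELR3 with 215, 201 and 180 and 324, 277 and 332 (0.65 ± 0.16, adjusted p = 0.0118). The SEC31A call was lost when VP64_A replicate 1 or 3 or any VP64_Ctrl library at 24 h was left out (log2 0.64 to 0.72), and that of KDELR3 without VP64_A replicate 1 or 3 or VP64_Ctrl replicate 3 (0.59 to 0.62). The keratinocyte markers were higher in VP64_A as well, through KRT14, and their part in these differences was not tested.

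Whether the cytokine response itself differed between the cell groups of an arm was tested as an interaction, and edgeR called 0 of 36 members at 6, 12 or 24 h in either arm. Of all genes tested, H47_KO against H47_Ctrl gave 0.00912%, 0% and 0% at these times, and VP64_A against VP64_Ctrl 0.0911%, 0.264% and 0.209%. DESeq2 called 1, 0 and 0 members for H47_KO. Over all genes it called 42 higher and 0 lower at 6 h, 0 and 0 at 12 h, and 0 and 1 at 24 h. For VP64_A it called 2, 2 and 0 members. Over all genes it called 5 higher and 62 lower, 38 and 32, and 25 and 17 there. By edgeR, 6, 3 and 2 members had an unadjusted p under 0.05 for H47_KO, beside 869, 709 and 616 of all 10962 genes. For VP64_A these were 11, 7 and 1 members, beside 1035, 1193 and 781 of 10980. The lowest adjusted p was that of SDF2L1 at 12 h in the CRISPRa arm, whose response was larger in VP64_A by 1.02 ± 0.25, adjusted p = 0.0657. HERPUD1 followed there with 0.91 ± 0.26, adjusted p = 0.177. In the CRISPRko arm HERPUD1 at 6 h gave 0.74 ± 0.22, adjusted p = 0.302. DESeq2 called all 3, and also HSP90B1 and SEC23A at 6 h in the CRISPRa arm (-0.96 and -0.82). The SDF2L1 response was called by edgeR with no filter on low counts, at 1.00 (adjusted p = 0.0205). It was also called without VP64_A 0 h replicate 2, at 1.18 (adjusted p = 0.0357), and without VP64_A 12 h replicate 1, at 1.11 (adjusted p = 0.0479). That of HERPUD1 at 12 h was called with loess offsets, at 1.02 (adjusted p = 0.0102), and without VP64_A 12 h replicate 2, at 1.11 (adjusted p = 0.0437). SYVN1 and CANX in the CRISPRa arm were called with no filter on low counts and with no other alternative. A p above the threshold does not show that the responses were alike.

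Other genes of the same pathways were read from 8 lists of 143 genes. At 12 h, 7 to 10 of 21 other ERAD genes tested were called higher in a cell group, 7 to 13 of 21 other COPII genes, 5 to 9 of 22 translocon, signal peptidase and targeting genes and 5 to 9 of 19 COPI genes, with at most 2 lower in any of them. Over all genes the share called higher at 12 h was 11.3% to 15.3%. Oligosaccharyltransferase and glycan trimming genes had 0 to 4 of 13 higher and 0 to 2 lower, and other ER oxidoreductases and folding enzymes 3 to 5 of 26 higher and 0 to 3 lower. ERN1, which encodes the sensor IRE1, rose at 6 h in all 4 groups, by 1.82 to 2.33 on the log2 scale, and at 12 h by 1.81 to 1.93. ATF6B, the paralogue of ATF6, was lower in H47_Ctrl at 24 h (-0.78) and in H47_KO and VP64_Ctrl at all 3 times. Of 9 genes of the PERK and ATF4 branch tested, ATF3, ATF4 and PPP1R15A rose at 6 h in all 4 groups, by 3.25 to 4.62, 1.06 to 1.35 and 1.81 to 2.41. At 6 h 3 to 5 of the 9 were called higher and 0 lower in a group, and at 12 h 2 to 5 higher and 0 to 3 lower. Those lower at 12 h were TRIB3 in H47_KO (-1.12) and TRIB3, ASNS and NUPR1 in VP64_Ctrl (-1.18, -0.79 and -0.75). Of 7 ER stress sensors and proteases tested, 1 or 2 were higher at 12 h and 0 to 2 lower. SELENOS, an ERAD membrane protein, rose at 6 h by 0.79 to 1.5 and at 12 h by 1.42 to 1.77 in all groups, and SELENOK at 12 h by 0.63 to 1.1. Among COPII genes SEC23B rose at 12 h by 0.39 to 0.88 and at 24 h by 0.48 to 0.94, and PREB at 12 h by 0.63 to 1.04. ARFGAP2 of the COPI cycle and TRAM2 of the translocon list were lower at 6 h in all 4 groups, with log2 fold changes of -0.83 to -0.60 and -0.83 to -0.45. ARFGAP1, also of the COPI cycle, rose at 12 h by 0.84 to 1.25, and COPB1 was called at 12 h in H47_Ctrl, H47_KO and VP64_A (0.81, 0.63 and 0.74). HSPA13 rose and the thioredoxin-like TMX4 fell in H47_Ctrl at 24 h (0.76 and -0.81), as DAD1, SEC11C and SEC61G rose (0.63, 0.60 and 0.72). Between VP64_A and VP64_Ctrl at 12 h, 3 of 9 PERK and ATF4 branch genes (DDIT3, SESN2 and TRIB3) were higher in VP64_A (4.31% of all genes were called in either direction), by 0.87, 0.89 and 1.32 on the log2 scale. The 12 h response of TRIB3 was also larger there, by 1.66 (adjusted p = 0.0131). ATF4, PPP1R15A, DDIT3, SESN2, TRIB3, ASNS, NUPR1, ARFGAP2 and TRAM2 were chosen after their values were seen.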

How the data were processed

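RNA-seq of 48 libraries was analysed (16 conditions, 3 libraries each). The authors trimmed reads with Trim Galore, removed ribosomal reads with SortMeRNA, aligned to GRCh38 with STAR and quantified with Salmon; versions, annotation and strand setting are not given in the sources used here. They deposited estimated counts per gene, of which 6.38% were not whole and were rounded, and the deposited TPM were used only for levels between genes and for markers. The 36 members and all gene lists were chosen with earlier results of these data known. Groups came from the sample descriptions. Each arm was fitted with edgeR 4.0.16 (R 4.3.3; quasi-likelihood F test, 24 libraries in 8 groups, TMM, filterByExpr with a minimum count of 10 and total of 15), with Benjamini-Hochberg adjustment over all genes tested (10962 and 10980) and calls at an adjusted p under 0.05. The SE is the log2 fold change divided by the square root of F. Library totals of 2321990 to 10661004 set the precision, and the scripts were tested on simulated data. Alternatives were DESeq2 1.42.0, its size factors, loess offsets, no filter, a replicate block and leaving out each library; the comparison of 24 h with 12 h, and leaving out the 3 libraries with a TMM factor over 1.4, were added after seeing the data. Values per library are given for members called in one direction against 0 h in at least 3 of 4 cell groups, or between the cell groups of an arm at 2 or more times, up to 4 per role, by the largest mean absolute log2 fold change at 24 h. Of each other list, up to 2 called genes with the lowest adjusted p at 24 h in H47_Ctrl are named. Values per library of HSPA5, CANX, SYVN1, SERPINH1, SEC23A, SEC31A and KDELR3 are shown by choice after their values were seen. The main fit treated libraries as unpaired. The 168 correlations between same-numbered libraries of different groups ran from -0.181 to 0.19, with 13 over 0.1. Libraries of unlike number were not compared, so these values cannot show whether the numbers pair libraries. Of 48 replicate pairs compared, 0 were identical.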

Additional observations from a re-analysis of the deposited data

How the results depend on the processing

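Counts of members called moved by over 1.5 times under these settings. With loess offsets the counts became 13 at 24 h in H47_Ctrl (8 in the report), 11 at 24 h in H47_KO (6), 8 at 6 h in VP64_A (5), 11, 8, 10 and 13 for 24 h against 6 h in H47_Ctrl, H47_KO, VP64_Ctrl and VP64_A (7, 5, 3 and 6), 2 for H47_KO against H47_Ctrl at 0 h (0), 5 for VP64_A against VP64_Ctrl at 12 h (2), 1 for the CRISPRa response at 12 h (0) and 8 for all 4 groups at 24 h (4). DESeq2 gave 8 for 24 h against 6 h in H47_KO, 4 for H47_KO against H47_Ctrl at 6 h (2), 4 for VP64_A against VP64_Ctrl at 24 h (2), 1 for the CRISPRko response at 6 h and 2 each for the CRISPRa responses at 6 and 12 h (0). No filter gave 2 and 3 for the last pair. Without the 3 libraries of high TMM factor the counts were 3 for 24 h against 6 h in H47_KO, 10 at 6 h in VP64_Ctrl (17) and 2 for VP64_A against VP64_Ctrl at 0 h (8). Against 0 h, leaving out single libraries gave 4 to 6 at 24 h in H47_Ctrl, 3 to 6 in H47_KO, 6 to 11 in VP64_A, 10 to 17 at 6 h in VP64_Ctrl and 1 to 4 for all 4 groups at 24 h. For 24 h against 6 h it gave 3 to 5 in H47_Ctrl, 2 to 12 in H47_KO and 3 to 6 in VP64_A, and for 24 h against 12 h 8 to 20 in H47_KO, 2 to 4 in VP64_Ctrl and 3 to 5 in VP64_A. Between cell groups it gave 1 to 2 for H47_KO at 6 h, 0 to 1 at 24 h, 2 to 8 for VP64_A at 0 h, 0 to 2 at 24 h and 0 to 1 for the CRISPRa response at 12 h. Only loess offsets reversed a direction: PPIB to -0.32 in H47_KO and -0.35 in VP64_Ctrl, FKBP10 to -0.51 and P4HB to -0.14 in VP64_Ctrl, all at 6 h. The cause was not tested in any of these. With the replicate block the counts stayed within 1.5 times of those reported, such as 25 in VP64_Ctrl at 12 h and 4 for 24 h against 6 h in H47_KO. Among gene-level values under all alternatives, 1837 kept direction and side of the threshold, 324 lost the call, 127 gained it and 4 reversed.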
